A study of Mus musculus with 8 samples.

Results

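The secreted antimicrobial lectins and their companions were followed through mouse intestinal organoids, sorted intestinal cells and intestinal sections. The genes were chosen by name, as the regenerating (Reg) family lectins and other secreted antimicrobial proteins of the gut: Reg1, Reg3a, Reg3b, Reg3g, Reg4, Retnlb, Ang4, Itln1 and Pla2g2a. Of these 9 genes, 8 had a row among the 32285 genes of the count matrices. Pla2g2a, which the RefSeq annotation of GRCm38.p6 lists as a transcribed pseudogene at chr4:138831857-138835189, had no row under that symbol and was not analysed here.

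The mouse gut epithelium keeps bacteria away from its surface with secreted proteins. Reg3g and Reg3b are C-type lectins that bind the surface of bacteria, and in the gut their genes respond to microbial signals and to interleukin 22. Reg1 and Reg3a belong to the same lectin family and lie beside them in the genome, while Reg4 is a more distant relative known from enteroendocrine and other secretory cells. Itln1 (intelectin 1) binds microbial glycans, Ang4 (angiogenin 4) is a ribonuclease-family protein of Paneth and goblet cells, and Retnlb (RELM-beta) is a goblet cell product with activity against Gram-negative bacteria. Paneth cells sit at the base of small intestinal crypts and are not a normal resident of the mouse large intestine.

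All 8 libraries came from C57BL/6 mice, whose ages the labels do not give. Small intestinal organoids at passage 1 were grown alone (control) or as a coculture, with 1 library each. The labels do not name the cells they were cocultured with, and each library pooled 16 wells before 100000 epithelial cells were sorted. Digested small intestine and digested large intestine gave 1 library each of live sorted cells. That sort enriched LGR5+ stem cells and CD31+ PDPN+ LYVE1+ lymphatic endothelial cells, from C57BL/6 mice and from Lgr5-eGFP-ires-CreERT2 mice kept on that background, so shares of cells in these libraries follow the sort. Visium spatial transcriptomics, which counts RNA under a grid of spots that can each hold several cells, was run on 10 µm cryosections, with 2 sections of each tissue as technical duplicates.

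The libraries held 24356162 to 142499881 UMIs (unique molecular identifiers, 1 per captured RNA molecule). After filtering, 538 of 818 control organoid barcodes, 1028 of 1233 coculture barcodes, 2695 of 8842 small intestinal and 5882 of 8646 large intestinal barcodes were kept as cells. In the small intestinal library 5497 barcodes exceeded 20% mitochondrial UMIs, against 2060 in the large intestinal one. Cells were assigned to classes by marker lists that held none of the 8 genes, and such a class is called gated, as in Paneth-gated. The organoid libraries shared 0 cell barcodes and the 2 tissue libraries shared 25. The Paneth-gated, goblet-gated and enteroendocrine-gated tissue cells were led by their own genes (Defa22 and Mptx2 among small intestinal Paneth-gated cells, Pyy and Chgb among large intestinal enteroendocrine-gated cells). In the control organoids, cells that passed the tuft gate were led by Igfbp3, Slfn2, Ly6d and Clu and held none of that gate's markers among their first 10 genes, so they are not called tuft cells here. Levels are given as CPM, the UMIs of a gene scaled to the UMIs of the library or class so that 10000 CPM are 1% of them, with an exact 95% Poisson interval, which covers counting error only. Because the sorted and organoid groups are single libraries, no difference between them has a replicate check.

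Reg3b, Reg3a, Reg1 and Reg3g lie within 97.99 kb of chromosome 6 (chr6:78370885-78468874, GRCm38.p6), a stretch with 6 protein-coding genes in the order Reg3b, Reg3d, Reg3a, Reg2, Reg1, Reg3g. Reg3b spans chr6:78370885-78373466, Reg3a chr6:78380709-78383839, Reg1 chr6:78425983-78428668 and Reg3g chr6:78466269-78468874. The other 4 genes lie elsewhere, with Reg4 at chr3:98222138-98236748, Retnlb at chr16:48816856-48818892, Ang4 at chr14:51763892-51773590 and Itln1 at chr1:171518123-171535325. The 250 bases before the start of each of the 4 clustered genes are printed because Reg3b and Reg3g levels followed each other from cell to cell while those of Reg1, from the same locus, did not. The sequences are RefSeq's (GRCm38.p6), read in the direction of the gene, and the capitals mark TATAAA on the gene's strand and the TTCNNNGAA motif that STAT proteins can bind. The windows are chr6:78370635-78370884 (+ strand) for Reg3b, chr6:78468875-78469124 (- strand) for Reg3g, chr6:78380459-78380708 (+) for Reg3a and chr6:78425733-78425982 (+) for Reg1.
Reg3b: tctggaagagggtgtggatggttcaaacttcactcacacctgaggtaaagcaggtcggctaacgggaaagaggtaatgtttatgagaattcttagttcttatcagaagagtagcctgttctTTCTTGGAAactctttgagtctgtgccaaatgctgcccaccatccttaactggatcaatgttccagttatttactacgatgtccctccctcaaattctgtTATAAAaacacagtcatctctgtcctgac
Reg3g: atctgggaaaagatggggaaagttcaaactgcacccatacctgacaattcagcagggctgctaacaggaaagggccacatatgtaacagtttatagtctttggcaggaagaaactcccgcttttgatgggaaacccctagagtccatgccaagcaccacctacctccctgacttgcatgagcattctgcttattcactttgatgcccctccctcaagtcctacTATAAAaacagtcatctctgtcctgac
Reg3a: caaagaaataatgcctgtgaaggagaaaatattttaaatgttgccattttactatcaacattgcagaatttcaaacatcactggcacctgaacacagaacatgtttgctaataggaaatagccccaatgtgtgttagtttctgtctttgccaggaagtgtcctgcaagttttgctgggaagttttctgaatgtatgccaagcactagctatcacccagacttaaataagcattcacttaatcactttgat
Reg1: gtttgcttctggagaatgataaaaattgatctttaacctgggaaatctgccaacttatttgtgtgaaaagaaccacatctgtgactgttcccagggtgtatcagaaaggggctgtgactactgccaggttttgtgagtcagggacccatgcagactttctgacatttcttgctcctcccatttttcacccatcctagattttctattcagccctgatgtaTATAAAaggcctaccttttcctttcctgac

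TATAAA began 29 bases before the start of Reg3b, 27 before Reg3g and 30 before Reg1, and was absent from the Reg3a window. Reg3g held a second match on the opposite strand, 161 bases before the start. Across 32851 windows of the same length, 12.4% held TATAAA on either strand. TTCNNNGAA, which reads the same on both strands in its fixed letters, occurred once before Reg3b, as TTCTTGGAA starting 129 bases before the gene, and in none of the other 3 windows printed. The Ang4 window, not printed, also held 1 match, starting 192 bases before that gene. Among all windows 7.02% held TTCNNNGAA. Aligned end to end, the Reg3b and Reg3g windows were identical at 68.4% of aligned positions and shared an unbroken run of 20 bases, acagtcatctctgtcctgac, at the end next to the gene. The other 20 pairs among the 7 genes with a window had 43.6 to 50.9% identity and shared runs of 6 to 11 bases.

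In the small intestine, the lectins of the chromosome 6 cluster were highest in enterocyte-gated cells. Reg3b reached 19961 CPM (19881 to 20041) in 404 enterocyte-gated cells. Its level was 1270.4 CPM in cycling cells, 572 in goblet-gated, 505 in stem-gated, 415 in Paneth-gated, 194 in enteroendocrine-gated and 118 in tuft-gated cells. The enterocyte level was 3.97 log2 units above that of the cycling cells. B-gated cells, which should not make the protein, carried 301 CPM, above the tuft-gated and enteroendocrine-gated values. They were shallower, with a median of 2802.5 UMIs against 15418 in tuft-gated and 12826 in enteroendocrine-gated cells. The CPM of stray RNA depends on depth, so whether the tuft-gated and enteroendocrine-gated values stood above background is not resolved.

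Reg3g followed the same order at the top, with 6509 CPM in enterocyte-gated cells. Its second highest class was Paneth-gated, at 1118 CPM, 2.54 log2 units lower, followed by 876 in cycling, 604 in goblet-gated and 313 in stem-gated cells, against 108 in B-gated cells. Paneth-gated cells held more Reg3g than Reg3b UMIs, 10158 against 3770, as did goblet-gated cells (2898 against 2743), while the other 5 epithelial classes held fewer. These UMI counts were compared without scaling by transcript length.

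Reg1 and Reg3a showed a narrower pattern. Reg1 stood at 770.3 CPM (755 to 786) in enterocyte-gated cells, at 42.4 in cycling and 16.3 in stem-gated cells, and at 7.27 to 9.38 in the other 4 epithelial classes, with 4.65 CPM in B-gated cells. Reg3a stood at 369 CPM in enterocyte-gated and 21.6 in cycling cells, and at 0 to 5.06 in the others, with 5.81 in B-gated cells. The enterocyte levels were 4.18 and 4.09 log2 units above the next class.

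Within the enterocyte-gated cells the 4 lectins were spread in different ways. Reg3b ranged from 139 CPM at the 10th percentile of cells over a median of 6301 to 48911 at the 90th, with one cell at 141828 CPM. Reg1 had a median of 19.9 CPM and a 90th percentile of 1579.5, and 13 of the 404 cells held 50% of its UMIs. Reg3a had a median of 145 CPM and a 90th percentile of 979. When each cell was thinned to 2000 UMIs, 84.2% of 400 enterocyte-gated cells kept a Reg3b UMI (B-gated cells 38.2%), 80.2% a Reg3g UMI (19.7%), 32.2% a Reg3a UMI and 23.2% a Reg1 UMI (1.2% for both in B-gated cells, whose median depth of 2802.5 UMIs compares with 30853 in enterocyte-gated cells).

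Reg3b and Reg3g were high in largely the same enterocytes, whereas Reg1-high cells held Reg3a-high cells at a share close to that of all cells. Of 400 enterocyte-gated cells with at least 2000 UMIs, 290 had 1000 CPM or more of Reg3b and 265 of Reg3g. The 255 cells high in both made up 87.9% of the first set and 96.2% of the second, where 66.2% and 72.5% of all 400 cells were high in the other gene. Reg1 passed 1000 CPM in 52 cells and Reg3a in 40, and 6 cells passed for both. That was 11.5% of the Reg1-high cells, against 10% of all cells high in Reg3a, and 15% of the Reg3a-high cells, against 13% of all cells high in Reg1. Reg3b was high in 33 of the Reg1-high cells (63.5%) and 32 of the Reg3a-high cells (80%), against 72.5% of all 400 cells. Over the 404 cells of this one library, Pearson's r of log levels was 0.873 for Reg3b with Reg3g, 0.065 for Reg1 with Reg3a and -0.040 for Reg1 with Reg3b. Depth accompanied Reg3b in these cells (r = 0.413 with log UMIs), and its part in the first value was not tested.

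Itln1 and Ang4 were the Paneth cell products of the set. Itln1 stood at 33696 CPM in 208 Paneth-gated cells, 2.93 log2 units above goblet-gated cells at 4417, and at 170 to 310.1 CPM in the other epithelial classes, below the 478 of B-gated cells. Its level varied little between Paneth-gated cells, from 21056 CPM at the 10th percentile to 53182 at the 90th, and each of the 206 cells with at least 2000 UMIs passed 1000 CPM. Ang4 stood at 11835 CPM in Paneth-gated and 1378 in goblet-gated cells, with 196 in B-gated cells and 57.6 to 114 in the remaining epithelial classes. In the goblet-gated cells Ang4 was carried by few cells: its median was 104 CPM, its 90th percentile 3504, and 8 of 207 cells held 50% of its UMIs. Thinned to 2000 UMIs, 98.1% of Paneth-gated cells kept an Ang4 UMI, against 28.9% of B-gated cells.

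Reg4 was shared among 3 secretory classes of the small intestine. Paneth-gated cells had 1119.6 CPM, enteroendocrine-gated cells 1095 and goblet-gated cells 526, against 5.50 to 13.8 in the other classes and 18.6 in B-gated cells. The first 2 levels differed by 0.03 log2 units, with a counting interval of -0.10 to 0.17, so their order is not resolved. One cell held 50.7% of the enteroendocrine Reg4 UMIs, whereas the highest Paneth-gated cell held 3.94% of that class's UMIs. The enteroendocrine signal lay in cells with UMIs of Tph1, the enzyme that makes serotonin: 8 such cells had 5679 CPM of Reg4 and the other 21 had 11.98. Within the 207 goblet-gated cells, Reg4 levels followed those of the Paneth cell genes Defa17 (r = 0.591), Defa24 (0.578) and Mmp7 (0.546) and ran against the goblet cell gene Clca1 (-0.528), and Itln1 followed Defa24 (0.653). The part of cells with RNA of both types in the goblet values of Reg4 and Itln1 was not tested. Among 206 Paneth-gated cells, 89 were high in Reg4 and 85 in Reg3g, and 33 were high in both (37.1% and 38.8% of the sets, where 41.3% and 43.2% of all these cells were high in the other gene).

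Retnlb was a goblet cell gene in both tissues. In the small intestine it stood at 172 CPM (161 to 184) in 207 goblet-gated cells, 4.38 log2 units above the next class, and 4 cells held 50% of its UMIs. B-gated cells held 0 Retnlb UMIs there, with an exact upper limit of 4.29 CPM. The plot of levels by gated class shows these patterns side by side for both tissues.

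**Figure D1:**
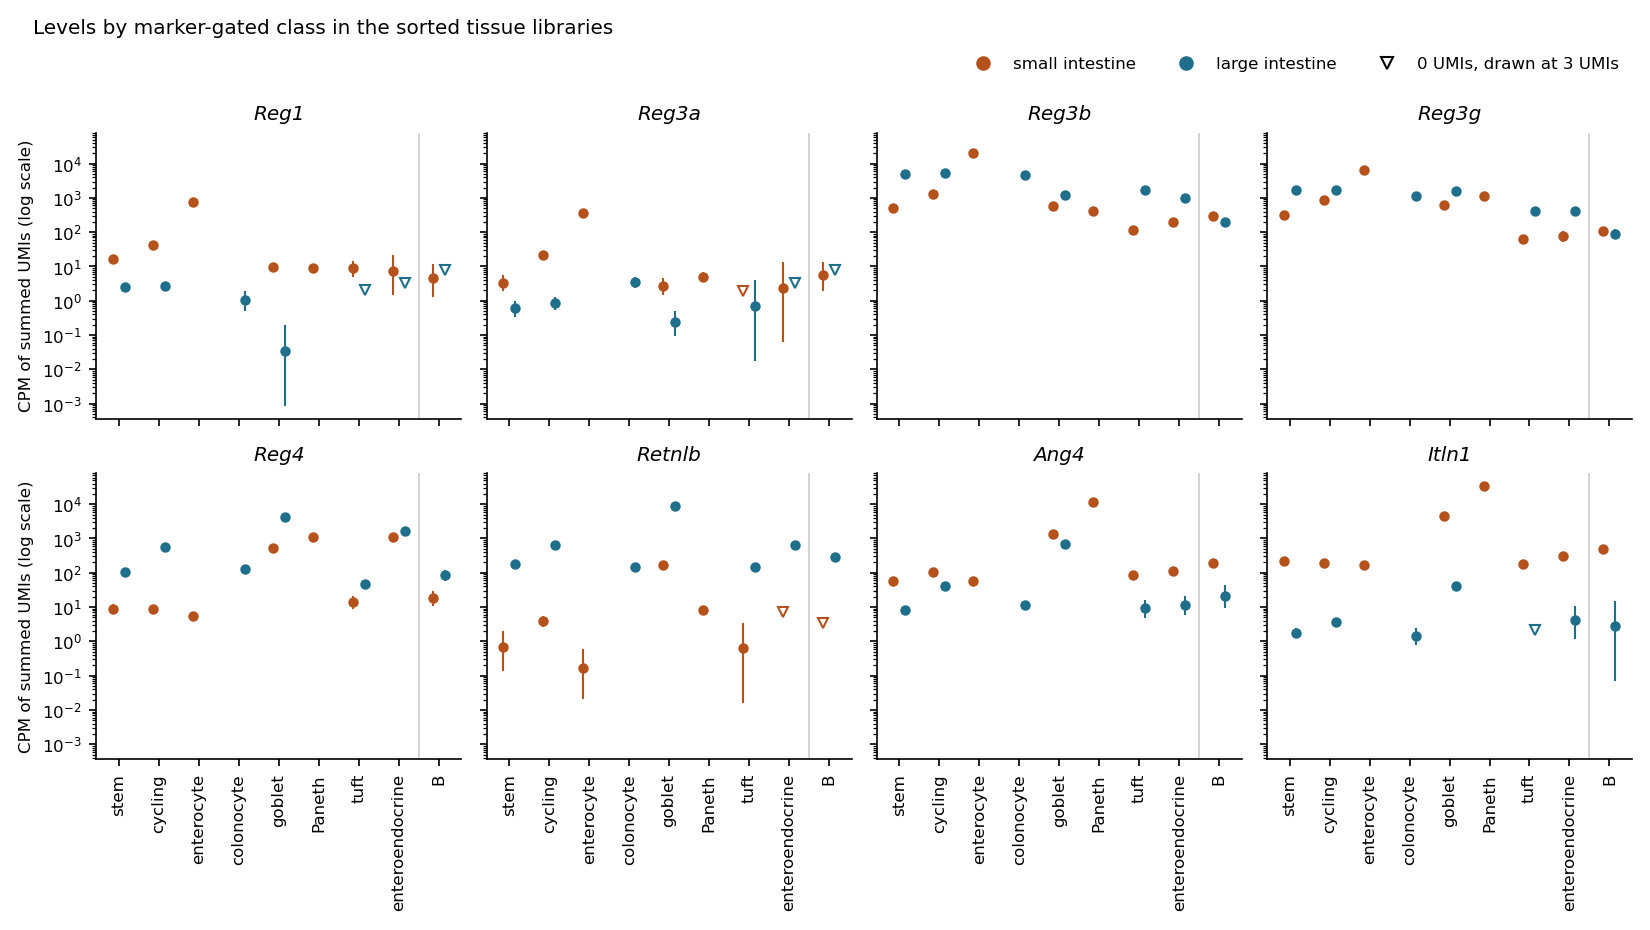
Level of each gene (CPM, log axis) by gated cell class in sorted small intestine (orange) and large intestine (blue), with B-gated cells as background right of the grey line. Bars are exact 95% Poisson intervals and open triangles are classes with 0 UMIs drawn at the level of 3 UMIs; Reg3b peaks in small intestinal enterocyte-gated cells at 19961 CPM, Itln1 in Paneth-gated cells at 33696 and Retnlb in large intestinal goblet-gated cells at 9047.

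In the large intestine the set divided differently among the classes. Retnlb reached 9047 CPM (9012 to 9081) in 1175 goblet-gated cells. Its levels in stem-gated (180.1), colonocyte-gated (146) and tuft-gated cells (151) were below the 296 CPM of B-gated cells, and the thinned share of B-gated cells with a Retnlb UMI, 41.7%, exceeded that of stem-gated cells, 21.5%. Only the goblet-gated (73.2% after thinning), cycling (651 CPM) and enteroendocrine-gated (653 CPM) values were above those of B-gated cells. B-gated cells had a median of 2644 UMIs, against 24195 in stem-gated, 26821 in colonocyte-gated and 14232 in tuft-gated cells. Stray RNA weighs differently at such unlike depths, so whether these 3 classes stood above background is not resolved. Reg4 also led in goblet-gated cells, at 4317 CPM, with 1611 CPM in enteroendocrine-gated and 548 in cycling cells, 47.7 to 129.8 in the other epithelial classes and 84.3 in B-gated cells.

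Reg3b and Reg3g were not tied to one large intestinal class. Reg3b stood at 5164 CPM in cycling, 4845 in stem-gated and 4663 in colonocyte-gated cells, then at 1738 in tuft-gated, 1255 in goblet-gated and 1016 in enteroendocrine-gated cells, against 201 in B-gated cells. A single cell held 40.7% of the tuft-gated UMIs. Reg3g stood at 1716 CPM in cycling, 1653 in stem-gated, 1581 in goblet-gated and 1168 in colonocyte-gated cells. Which of cycling, stem-gated and colonocyte-gated cells came first changed with the cell filter, the scaling and the way classes were drawn, so that order is not resolved. In stem-gated cells the Reg3b values spanned a wide range, with a median of 230.3 CPM and a 90th percentile of 15676, and 60 of 945 cells held 50% of its UMIs. Reg1, Reg3a and Itln1 were low throughout, at no more than 2.76, 3.47 and 41.3 CPM in any epithelial class. Ang4 stood at 685 CPM in goblet-gated cells, with 10 of 1175 cells holding 50% of its UMIs. The 39.9 CPM of Ang4 in cycling cells came to 77.0% from 1 cell.

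Set against each other, the epithelial-gated cells of the 2 tissues differed by more than 2-fold in 6 of the 8 genes. A gene is said to pass 2-fold where the levels differ at least that much and the higher group has at least 100 UMIs. Retnlb and Reg4 were higher in the large intestine, where 14.2% of the 12195 genes compared passed in that direction. Reg1, Reg3a, Ang4 and Itln1 were lower, where 6.91% of genes passed. The median over the 8 genes was -2.22 log2 units, against 0.33 over all genes compared. Retnlb stood at 23.3 CPM in small and 3116 in large intestinal epithelium, a log2 ratio of 7.06 (6.97 to 7.16). Reg4 stood at 332 and 1584 CPM (2.25, interval 2.23 to 2.28). Itln1 stood at 8270.6 and 14.7 CPM (-9.13), Reg1 at 244 and 1.60 (-7.25), Reg3a at 116 and 0.849 (-7.10) and Ang4 at 2889.8 and 231 (-3.64). Reg3b, at 6433 and 3709 CPM (-0.79), and Reg3g, at 2477 and 1569 (-0.66), did not pass 2-fold.

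For Reg3b and Reg3g the classes differed in opposite directions. Colonocyte-gated cells had less Reg3b than enterocyte-gated cells (log2 ratio -2.10), while large intestinal stem-gated (3.26), cycling (2.02), goblet-gated (1.13), enteroendocrine-gated (2.39) and tuft-gated cells (3.89) had higher levels than their small intestinal counterparts. The last 2 ratios are over small intestinal levels no higher than in the shallower B-gated cells. How far they measure a difference is not resolved. Reg3g differed by -2.48 between colonocyte-gated and enterocyte-gated cells, and by 2.40 in stem-gated, 0.97 in cycling and 1.39 in goblet-gated cells. Goblet-gated cells differed by 5.72 for Retnlb and 3.04 for Reg4 in the direction of the large intestine, and by -1.01 for Ang4 and -6.74 for Itln1.

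Goblet-gated cells of the large intestine carried the set in different combinations. Of 1082 cells with at least 2000 UMIs, 616 passed 1000 CPM for Retnlb, 522 for Reg4, 187 for Reg3g, 150 for Reg3b and 68 for Ang4. Reg3g-high cells were mostly Retnlb-high: 175 cells passed for both, 93.6% of the Reg3g-high and 28.4% of the Retnlb-high cells, while 56.9% of all 1082 cells were Retnlb-high and 17.3% Reg3g-high. Few were Reg4-high: 13 cells passed for both, 6.95% of the Reg3g-high and 2.49% of the Reg4-high cells, while 48.2% of all cells were Reg4-high. Of the Ang4-high cells, 60 were Retnlb-high (88.2% of the Ang4-high and 9.74% of the Retnlb-high cells). Ang4 and Reg3g passed together in 7 cells, 10.3% of the Ang4-high and 3.74% of the Reg3g-high cells, beside 17.3% and 6.28% of all cells. Retnlb and Reg4 passed together in 252 cells, 40.9% and 48.3% of their sets.

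The same cells were also divided by Hoxb13, a homeobox gene of the distal colon. The split by Hoxb13 was chosen after its values had been seen, and it was made within classes among cells with at least 10000 UMIs. Hoxb13 stood at 124 CPM in large intestinal epithelium and had 0 UMIs in small intestinal epithelium. Among stem-gated cells, 284 with a Hoxb13 UMI had 1546 CPM of Reg3b and 605 without had 6541, with cell medians of 109.6 and 969 CPM. The share of cells at 1000 CPM or more was 15.8% with and 49.6% without. Median depths were 25649 and 24289 UMIs. Reg3g stood at 595 and 2192 CPM in the same cells. In cycling cells (321 with, 385 without) Reg3b stood at 2273 and 7626 CPM, and in colonocyte-gated cells (167 and 140) at 856 and 8749.9. All 33 Reg3a UMIs of these colonocyte-gated cells fell in the 140 without a Hoxb13 UMI.

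In goblet-gated cells the split was wider for the Reg3 lectins and went different ways for Retnlb and Reg4. Reg3b stood at 269 CPM in 627 cells with a Hoxb13 UMI and at 2909 in 366 without, and Reg3g at 302 and 3724. Retnlb stood at 3758 and 17888 CPM, with cell medians of 506 and 12212, and 38.4% and 88.5% of cells at 1000 CPM or more. Reg4 had the lower summed level in cells with Hoxb13, 2874 against 6728 CPM, yet the higher cell median, 1437 against 94.2 CPM, and the larger share of cells at 1000 CPM or more, 56.1% against 34.4%. Cells without a Hoxb13 UMI thus held Reg4 in fewer cells at a higher level. Ang4 differed less, at 766 and 569.6 CPM. Cells that lack a UMI of one gene are not all cells that lack its expression, so the 2 sets overlap to an unknown degree. The cumulative plot by Hoxb13 shows these distributions.

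Reg3b and Reg3g also varied together from cell to cell in the large intestine. Pearson's r of their log levels was 0.893 over 945 stem-gated, 0.888 over 794 cycling, 0.841 over 371 colonocyte-gated and 0.798 over 1175 goblet-gated cells, all of 1 library. In the small intestine it was 0.612 over 207 goblet-gated and 0.295 over 208 Paneth-gated cells. With Hoxb13, Reg3b gave -0.371 to -0.485 in the 4 large intestinal classes and Retnlb gave -0.618 in goblet-gated cells.

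In intact sections the contrast between the tissues was far larger for Reg3b and Reg3g. The 2 small intestinal sections held 35342 and 30896 CPM of Reg3b, 3.53% and 3.09% of all UMIs, and the 2 large intestinal sections held 96.7 and 108. Reg3b UMIs were present in each of the 2094 and 2571 small intestinal spots, and in 475 of 2094 and 476 of 2179 large intestinal spots. The small intestinal spots include those led by muscle genes, at 7021 and 5239 CPM. Presence in a spot thus does not show that the cells under it made Reg3b. Reg3g stood at 15166 and 14047 CPM, 1.52% and 1.40% of UMIs, in the small intestine and at 28.4 and 33.7 in the large intestine. In sections, fewer cells of a type and less RNA per cell cannot be told apart.

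Among the 7 genes that reached 100 UMIs in a tissue, Retnlb was past 2-fold higher in the large intestinal sections, where 13.1% of 13518 genes passed in that direction, and the other 6 were past 2-fold lower, where 14% passed. The log2 ratio of the section means was -8.34 for Reg3b (range over the 4 pairs of sections -8.51 to -8.16), -8.88 for Reg3g (-9.06 to -8.70) and -6.98 for Itln1. Reg3a had 1 and 0 UMIs in the large intestinal sections against 21.6 and 20.7 CPM in the small intestinal ones, and setting each large intestinal count to the floor of 3 UMIs gave -8.23, which is not a measured ratio. Retnlb stood at 874 and 551 against 1755 and 1491 CPM (1.19, pairs 0.77 to 1.67). Ang4 stood at 3107 and 2033 against 1117 and 947 CPM (-1.32, pairs -1.71 to -0.86). Reg4 stood at 654 and 473 against 188 and 180.1 CPM (-1.61, pairs -1.86 to -1.33), the opposite direction to the sorted epithelium. Reg1 fell short of 100 UMIs, with 36 and 34 in the sections of small intestine and 1 and 0 in those of large intestine. The median over the 7 genes was -6.98 log2 units, against 0.04 over all genes.

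Genes known to vary along the gut also differed between the sections and the sorted libraries. Hoxb13 stood at 356 and 368 CPM in the large intestinal sections against 124 in the sorted large intestinal epithelium. Fabp6, the bile acid binding protein of the ileum, stood at 5815 and 5149 CPM in the small intestinal sections and 1242 in sorted small intestinal epithelium. Gata4, a transcription factor of the proximal small intestine, stood at 1.15 and 1.76 CPM in those sections and 26.2 in the sorted epithelium. Whole sections and sorted epithelium also differ in cell composition and assay. The part of each, and of position along the gut, in the differences was not tested.

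Spots were typed by marker lists that held none of the 8 genes. In the small intestinal sections Reg3b was highest in spots of goblet genes (64860.1 and 57649 CPM in sections 1 and 2) and of absorptive villus genes (58076 and 48036), and lower in spots of crypt genes (12317 and 11801), Paneth genes (5489 and 6976) and muscle genes (7021 and 5239). Reg3g ran in the same direction, from 26501 and 25379.9 CPM in goblet-gene spots to 4239 and 3081 in muscle-gene spots. Reg3a was likewise highest in goblet-gene spots, at 45.2 and 42.1 CPM. Reg1, with its few UMIs, was highest in crypt-gene spots, at 7.001 and 7.36 CPM.

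Reg4, Itln1 and Ang4 were highest in Paneth-gene spots. Reg4 stood at 3494 and 3361 CPM in Paneth-gene spots, 1104 and 1102 in crypt-gene spots and 127 and 100.6 in goblet-gene spots. Itln1 stood at 19577 and 15859.5 CPM in Paneth-gene spots and at 1057 and 602 in absorptive villus spots. Ang4 stood at 10688 and 6929 CPM in Paneth-gene and 4323 and 3334 in crypt-gene spots, then 3036 and 2679 in goblet-gene spots and 1492 and 724 in muscle-gene spots. Retnlb was highest in crypt-gene spots, at 2043 and 1452 CPM, ahead of goblet-gene spots at 1162 and 896. Spots of Paneth genes thus had the most Reg4, Itln1 and Ang4 in both small intestinal sections, while their Reg3b was at a level like that of muscle-gene spots, each of which also held Reg3b UMIs.

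In the large intestinal sections, goblet-gene spots led for Retnlb (4457 and 3572 CPM), Ang4 (3976 and 3246), Reg3b (341 and 413), Reg3g (84.0 and 100.4) and Itln1 (90.8 and 69.8). Reg4 did the opposite, with 479 and 460.1 CPM in crypt-gene spots and its lowest levels, 41.1 and 29.3, in goblet-gene spots, 3.54 and 3.97 log2 units lower. Over the spots of each section, Pearson's r was 0.908 and 0.913 for Retnlb with Ang4 in the large intestine (2094 and 2179 spots) and 0.439 and 0.448 in the small intestine (2094 and 2571 spots). It was -0.171 and -0.244 for Reg4 with Retnlb in the large intestine. In the small intestine it was 0.930 and 0.909 for Reg3b with Reg3g, 0.798 and 0.740 for Reg4 with Itln1 and -0.600 and -0.430 for Reg3b with Reg4. Reg3b with Ang4 gave -0.233 in section 1 and 0.090 in section 2. Spots of a section share the library and neighbouring tissue, so these values describe the layout.

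**Figure D2:**
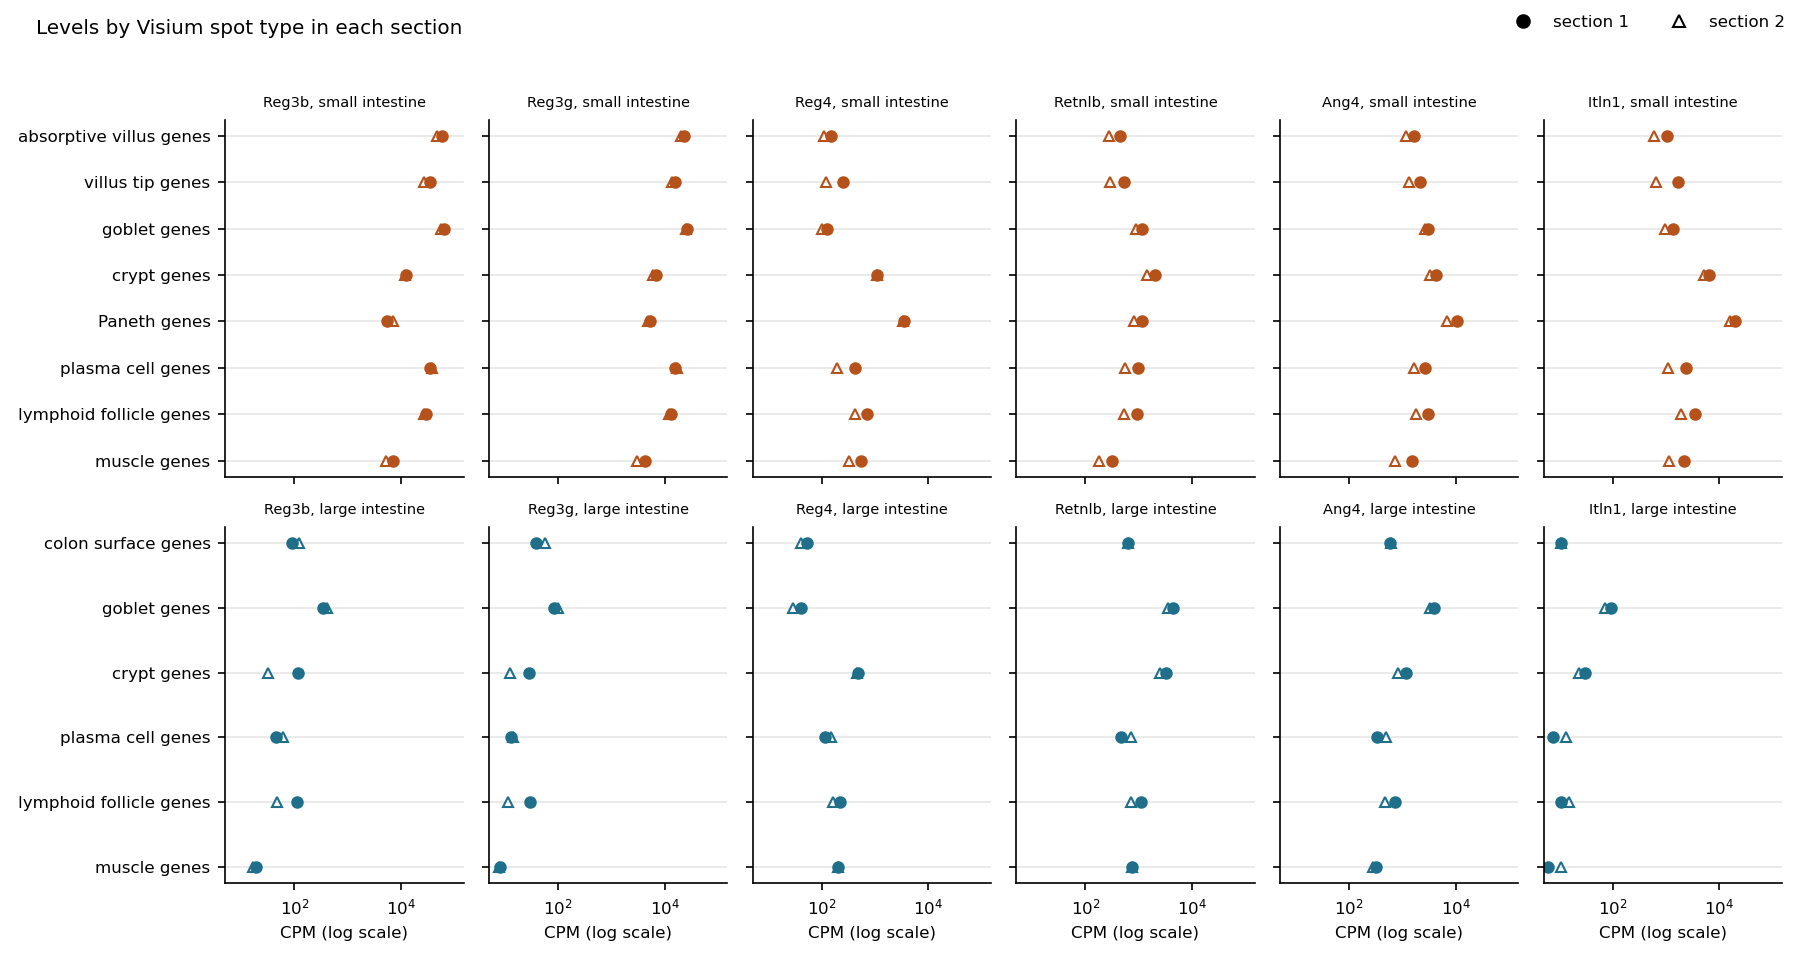
Level of 6 genes (CPM, log axis) by spot type in the small (top row) and large (bottom row) intestinal sections, with section 1 as filled circles and section 2 as open triangles. Reg4 peaks in Paneth-gene spots of the small intestine (3494 and 3361 CPM) and is lowest in goblet-gene spots of the large intestine (41.1 and 29.3 CPM), where Retnlb and Ang4 are highest.

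Summed over all cells, organoids held these RNAs at low levels. Relative to small intestinal tissue epithelium, 8 of 8 genes were past 2-fold lower in control organoids, where 11.5% of the 11112 genes compared passed lower and 12.2% higher, and again 8 of 8 in cocultured organoids, where 13.2% of 11296 genes passed lower and 11.4% higher. Both comparisons share the tissue library. The median over the 8 genes was -8.58 log2 units for control and -6.86 for cocultured organoids, against 0.17 and 0.08 over all genes compared. Reg3b stood at 0.185 CPM in control organoids, 6.22 in the coculture and 6433 in tissue epithelium. Reg3g stood at 5.66, 7.77 and 2477 CPM, Reg1 at 0.393, 3.32 and 244, and Reg3a at 0.185, 0.629 and 116. Retnlb had 0 UMIs in both organoid libraries, where 3 UMIs would be 0.0693 CPM in the control and 0.0309 in the coculture, against 23.3 CPM in tissue epithelium. The exact 95% intervals of its ratios to tissue end at -8.09 and -9.26 log2 units.

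Itln1, Reg4 and Ang4 were the genes with the smallest gaps between organoids and tissue. Itln1 stood at 781 CPM in control organoids and 888 in the coculture against 8270.6 in tissue epithelium, log2 ratios of -3.40 and -3.22. Reg4 stood at 25.3 and 132 against 332 CPM (-3.71 and -1.33), and Ang4 at 69.6 and 99.1 against 2889.8 CPM (-5.38 and -4.87). Within Paneth-gated cells Itln1 stood at 16052 CPM in the control, 24565 in the coculture and 33696 in tissue, log2 ratios to tissue of -1.07 and -0.46. Ang4 stood at 2130.3, 3411 and 11835 CPM there. Reg3g stood at 8.03, 8.04 and 1118 CPM in the same cells. The Paneth marker list itself had cell medians of 7377, 133229 and 543307 CPM in them, so these classes differ in marker level too. Some classes did stand above tissue. Reg4 in Paneth-gated cells was above tissue in the coculture, at 1449 against 1119.6 CPM (log2 ratio 0.37), and below it in the control, at 553 CPM (-1.02). In enteroendocrine-gated cells Reg4 was at 11135 CPM in the coculture against 1095 in tissue (3.35). Itln1 in stem-gated cells stood at 348 and 263 CPM against 215 in tissue, a tissue value below that of B-gated cells. Reg3g in Paneth-gated organoid cells was thus as low as in other organoid cells, of which stem-gated cells had 10.0 and 8.74 CPM, at a log2 ratio to tissue of -7.12 in both libraries. Share of the tissue sort, region of origin and culture cannot be told apart in these comparisons. Gata4 stood at 39.8 and 38.7 CPM in the organoids, against 26.2 in tissue epithelium, and Fabp6 at 0.924 and 1.196, against 1242. Slc10a2, another ileal bile acid gene, stood at 13.98 and 3.77 CPM in the organoids, against 13.27 in tissue epithelium, and so did not follow Fabp6.

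**Figure D3:**
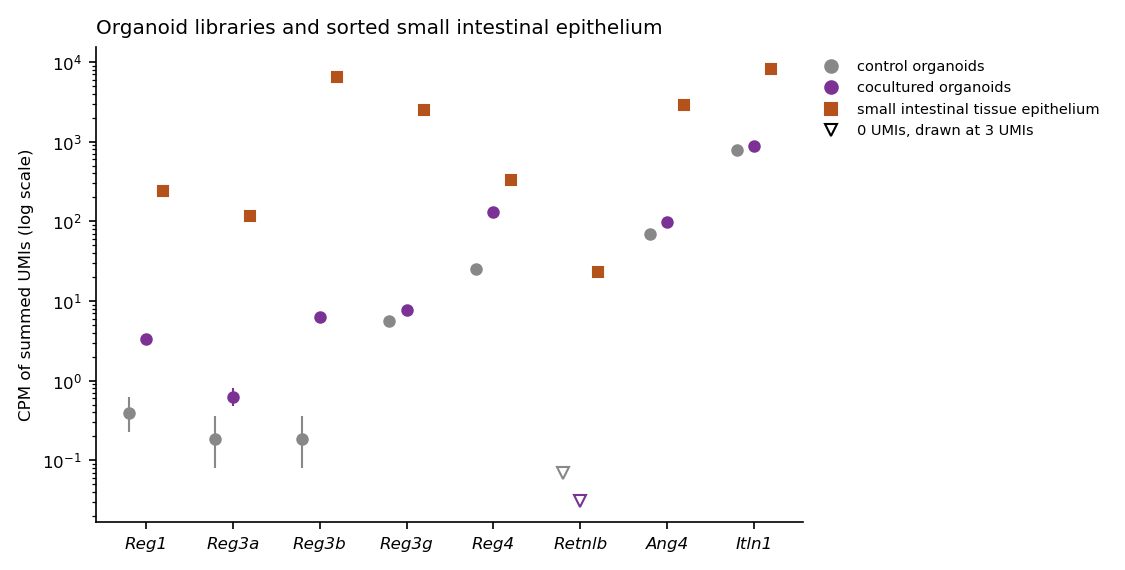
Level of each gene (CPM, log axis) in control organoids (grey), cocultured organoids (purple) and small intestinal tissue epithelium (orange squares), with exact 95% Poisson intervals and triangles for 0 UMIs. Each of the 8 genes is lowest in the organoids, from Itln1 at 781 and 888 CPM against 8270.6 to Reg3b at 0.185 and 6.22 against 6433.

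Between the organoid libraries, 3 of the 6 genes with at least 100 UMIs were past 2-fold higher in the coculture and 0 were lower, where 1.22% of 10781 genes passed higher and 2.53% lower. These were Reg3b (log2 ratio 5.07, interval 4.08 to 6.29), Reg1 (3.08, 2.38 to 3.88) and Reg4 (2.38, 2.29 to 2.47). Ang4 (0.51), Reg3g (0.46) and Itln1 (0.18) were higher by less than 2-fold. The median over the 6 genes was 1.45, against -0.08 over all genes.

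The Reg3b and Reg1 differences came largely from 1 cell. A single enterocyte-gated coculture cell with 104632 UMIs held 519 of the 603 Reg3b UMIs (86.1%), 246 of 322 Reg1 UMIs (76.4%) and 37 of 61 Reg3a UMIs (60.7%), and 0 Reg3g UMIs. It had 4960.2 CPM of Reg3b, below the median of tissue enterocyte-gated cells, and 2351 CPM of Reg1, above the 90th percentile there. Without the highest cell of each library the log2 ratios were 2.91 for Reg3b and 1.28 for Reg1, both from fewer than 100 UMIs, and 1 gene, Reg4, passed 2-fold. Reg3b UMIs were seen in 26 of the 1028 coculture cells in all. Reg3g was spread more evenly, with UMIs in 90 of 538 control and 274 of 1028 coculture cells and at most 13.5% and 3.98% of them in 1 cell.

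Most of the Reg4 difference between the organoid libraries lay in 2 secretory classes. In the coculture, 24 enteroendocrine-gated cells held 64.1% of its 12795 UMIs at 11135 CPM, and 40 Paneth-gated cells held 31.0% at 1449 CPM. In the control, 37 Paneth-gated cells held 50.3% of its 1096 UMIs at 553 CPM, 27 goblet-gated cells held 37.0% at 228 CPM, and the 9 enteroendocrine-gated cells held 0. Goblet-gated cells of the coculture stood at 212 CPM, and 1 cell held 64.3% of the goblet Reg4 UMIs in the control and 78.1% in the coculture. The log2 ratio of 2.38 became 0.91 without the enteroendocrine-gated cells (47.7 against 25.4 CPM) and -0.96 without both these and the Paneth-gated cells (6.65 against 12.9 CPM). That last sign was not shared by all remaining classes. Reg4 was higher in coculture stem-gated (2.52, from 46 against 4 UMIs), cycling (2.12, 55 against 6) and enterocyte-gated cells (1.78, 52 against 5). It was lower in ungated cells, at 1.72 against 11.4 CPM, and near level in goblet-gated cells (-0.11). As in tissue, the coculture signal lay in Tph1-positive enteroendocrine cells: 15 cells with a Tph1 UMI had 21509 CPM, 11 of them with Reg4, and 9 cells without had 220.0 CPM. Large intestinal enteroendocrine-gated cells were less divided, with 2278 CPM in 30 cells with Tph1 and 1234 in 40 without.

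Itln1 and Ang4 UMIs lay more in Paneth-gated cells in the coculture library. Paneth-gated cells were 6.88% of control and 3.89% of coculture cells, yet their share of Itln1 UMIs was 47.3% and 78.1%, and of Ang4 UMIs 70.5% and 97.2%. Per cell class the coculture was higher by 1.39 log2 units for Reg4, 0.68 for Ang4 and 0.61 for Itln1 in Paneth-gated cells. Outside the Paneth-gated cells it was lower, by 2.88 log2 units for Ang4 (2.87 against 21.0 CPM) and by 1.07 for Itln1 (200.4 against 421). Most of the control's other Ang4 UMIs, 606, lay in ungated cells, at 55.6 CPM against 1.24 in the coculture. Itln1 in ungated cells stood at 564 CPM in the control and 92.5 in the coculture. In the coculture it was lower in stem-gated (-0.40) and cycling cells (-0.31) and higher in enterocyte-gated (0.54) and goblet-gated cells (0.08). In the control and the coculture, Ang4 stood at 1.63 and 1.94 CPM in stem-gated, 0.889 and 1.19 in cycling and 1.76 and 1.203 in enterocyte-gated cells. The Paneth-gated cells of the control were shallow, with a median of 1357 UMIs against 73663.5 in that library and 65027 in the Paneth-gated cells of the coculture. Defensin genes led both, but the Paneth marker list had a cell median of 7377 CPM in the control against 133229 in the coculture. The same control cells carried a median of 5753 CPM of the enterocyte marker list, so the 2 Paneth-gated classes are not alike. The part of these gaps in depth and marker level in the differences was not tested. Goblet-gated cells had 3595 and 3795 CPM of Itln1 and 136 and 49.4 of Ang4 in the control and the coculture. One cell held 58.7% and 54.5% of those goblet Ang4 UMIs. In the control's Paneth-gated cells, 1 cell held 37.4% of the Reg4, 33.7% of the Ang4 and 29.2% of the Itln1 UMIs.

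**Figure D4:**
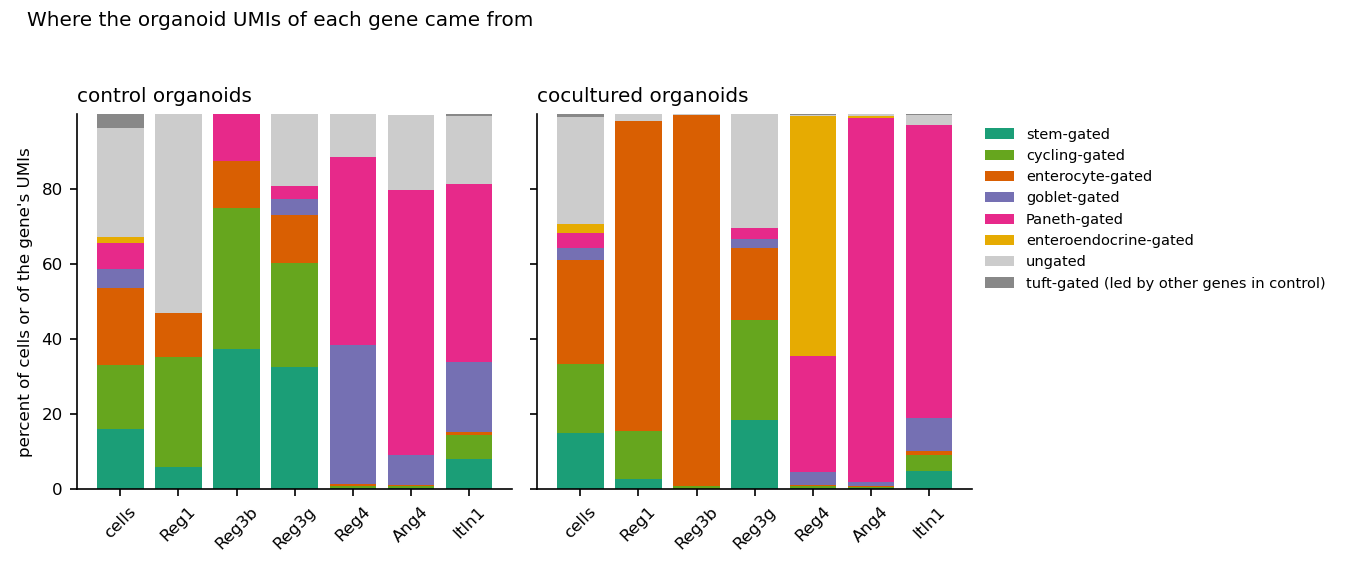
Stacked bars from 0 to 100% of all cells and of the UMIs of 6 genes by gated class, for control and cocultured organoids. Enteroendocrine-gated cells hold 64.1% of Reg4 UMIs in the coculture and 0 in the control, and Paneth-gated cells hold 70.5% and 97.2% of Ang4 UMIs in the control and the coculture.

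Signals upstream of the set were looked for in lists of 22 receptors and epithelial factors and 12 ligands. Il22 and Il17a, ligands that act on Reg3 genes, had 0 UMIs in organoids and in small and large intestinal epithelium, with upper limits of 0.0918 and 0.0396 CPM in the tissue libraries. They also had 0 UMIs in the 71 small and 91 large intestinal cells gated as T, NK or innate lymphoid cells, which hold the known sources of both. In sections, 1 and 19 Il22 UMIs were counted for small intestine and 6 and 2 for large intestine. Il22ra1, a subunit of the interleukin 22 receptor, stood at 2.22 CPM in small and 0.387 in large intestinal epithelium and at 2.68 and 1.36 in control and cocultured organoids. Its other subunit gene, Il10rb, stood at 42.5 and 35.0 CPM in the organoids. Of 17 receptors and factors with at least 100 UMIs, 1 passed 2-fold higher in the coculture and 0 lower, where 1.22% and 2.53% of all genes passed. The gene that passed was Il18, a cytokine that this list held. Those that differed most across both lists were the alarmin Il33 (-1.72), the cytokine Il18 (1.26) and Il22ra1 (-0.98, not past 2-fold). Against tissue epithelium, 5 of 18 receptors and factors were past 2-fold lower in control organoids and 0 higher, where 11.5% and 12.2% of all genes passed. The secretory lineage factors Spdef (-3.64) and Atoh1 (-2.16) were lower and the cytokine Tnf (3.20) was higher.

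Other antimicrobial and defence genes did not share one direction. Of 43 listed genes, 23 had at least 100 UMIs in an organoid library, and 1 was past 2-fold higher and 6 lower in the coculture, where 1.22% and 2.53% of all genes passed, with a median of -0.21. The highest was Zg16, a goblet cell lectin (1.53, at 189.9 against 65.97 CPM), and the lowest were the secreted inhibitor Wfdc2 (-3.97) and the oxidase Duox2 with its maturation factor Duoxa2 (-2.22 and -2.00). Against tissue epithelium, 14 of 27 were past 2-fold lower and 7 higher in control organoids (11.5% and 12.2% of all genes; median -1.16). Mptx2, a mucosal pentraxin of Paneth cells, had the lowest ratio (-12.97), and Sprr1a, a small proline-rich protein of stressed epithelium, the highest (8.89). In cocultured organoids 17 of 27 were lower and 6 higher (13.2% and 11.4% of all genes; median -2.75), with Mptx2 at -12.41 and Sprr1a at 7.17.

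Between the tissues, 15 of 33 defence genes were past 2-fold higher and 8 lower in large intestinal epithelium (14.2% and 6.91% of all genes; median 0.70). In large intestinal sections 13 of 38 were higher and 12 lower (13.1% and 14% of all genes; median 0.21). Mptx1, a second mucosal pentraxin, was at 18.6 and 7441 CPM in small and large intestinal epithelium (8.64) and higher in the large intestinal sections as well (6.23). The serum amyloid gene Saa1 (8.68) and the protease inhibitor Slpi (7.45) were also higher in large intestinal epithelium. The Paneth cell defensin Defa24 had 3 UMIs in large and 3148506 in small intestinal epithelium. Mmp7, the protease that activates Paneth cell defensins, was lower in the large intestine in both assays (-4.71 and -8.44), and the pattern receptor gene Tlr4 was higher in large intestinal epithelium (5.32). Of 20 receptors and factors, 6 were past 2-fold higher and 1 lower in the epithelium, and 3 higher and 3 lower in the sections, where the shares over all genes were the same as above. The counts of lower genes in the epithelium and of both kinds in the sections were near those shares.

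The genes most like each member were sought over the 13 epithelial classes of both tissues with at least 20 cells, among 3199 genes reaching 100 CPM in a class, by Pearson's r of log2(CPM + 1). Reg1 was most like Rdh7 (0.959) and Apoa4 (0.945), and Reg3a most like Enpep (0.942) and Rdh7 (0.936), which are enterocyte genes of retinoid, lipid and peptide handling. Reg3b was most like the carboxylesterase gene Ces1f (0.928), Idh1 (0.875) and Reg3g (0.873), and Reg3g most like Reg3b and Ces1f (0.845). Retnlb was most like Mptx1 (0.980) and Sval1 (0.973). That likeness is between classes: within the 1175 large intestinal goblet-gated cells Retnlb ran against Sval1 (r = -0.546). Reg4 was most like 5330417C22Rik (0.928) and the phospholipase gene Pla2g2f (0.924). Ang4 was most like Clps (0.960) and Pnliprp2 (0.927), and Itln1 most like Pnliprp2 (0.966) and Lyz1 (0.966). Clps and Lyz1 were themselves markers of the Paneth gate. Among the 8 genes, r was 0.892 for Ang4 with Itln1, 0.896 for Reg1 with Reg3a and 0.639 for Reg4 with Retnlb. The classes share 2 libraries, so these values describe likeness only.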

How the data were processed

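Single-cell libraries of sorted organoid and tissue cells and Visium sections were analysed from the deposited UMI counts, which Cell Ranger 6.0.1 and Space Ranger 1.2.1 made, per the file headers, on the mm10 build, per the submitters' processing notes. A cell needed 500 genes or more and a mitochondrial share of no more than 20%, and the highest Scrublet scores were removed at 0.8% per 1000 cells (scanpy 1.11.5). Spots needed 500 UMIs. Cells and spots were gated by marker list scores (z of at least 0.5, margin of 0.25 over the next list), thresholds set after the files had been seen, with 156, 293, 249 and 761 cells ungated in the control, coculture, small and large intestinal libraries. Between 6.23 and 19.0% of cells lay near the cut. Summed counts were expressed as CPM. Groups of 1 library allow no test: ratios carry exact 95% Poisson intervals, counts under 3 were set to 3, and section ratios carry the range over pairs. Intervals cover counting error only. Windows were aligned with Biopython 1.88. The 8 genes and the lists were chosen with earlier results of these data known. Named list genes were the 4 highest and 4 lowest defence genes and the 3 upstream genes farthest from 0 per comparison, and for likeness the 3 highest r. Fewer are printed in places.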

Additional observations from a re-analysis of the deposited data

Results flagged for a closer look

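Reg4 differed between the tissues in opposite directions in the 2 assays. The log2 ratio of large over small intestine was 2.25 in sorted epithelium and -1.61 in the Visium sections, where each of the 4 pairs of sections gave a negative ratio. The difference between the assays was not tested. The sorted epithelium held 1175 goblet-gated large intestinal cells at 4317 CPM, whereas goblet-gene spots of the large intestinal sections had the lowest Reg4 levels of any spot type, at 41.1 and 29.3 CPM.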

How the results depend on the processing

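The 296 values of single genes kept their direction where they had passed 2-fold: 183 moved by less than their interval, 113 by more and 0 reversed. Reg3a, which had not passed between the organoids, changed from 1.77 to -1.76 when each cell's CPM was averaged. The 3 genes past 2-fold between the organoids became 1 without the cell with the most UMIs, and the 7 between the sections became 4 at the stricter threshold of 4-fold. Leaving out 1 section gave 6 to 7. The 6 between the sorted epithelia became 7 with median-of-ratios scaling, where Reg3b was at -1.13. No share over all genes is given at these changed settings, so the changed counts cannot be read against one. Of 16 highest classes, 12 to 15 were unchanged by other filters, scalings and gates, and of 26 highest spot types 25 to 26. No paired analysis was possible because the results come from no test and the replicate numbers are technical duplicates of sections. Few UMIs limit the precision of Reg1 in sections and of Reg3a in large intestinal cells. CPM over UMIs of other genes was added after seeing the data and changed none of the 4 counts of genes past 2-fold.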

Other observations

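Markers of position along the gut were also used to divide the small intestinal enterocyte-gated cells with at least 10000 UMIs, a division chosen after the values had been seen. By Gata4, Reg1 stood at 972 CPM in 235 cells with a UMI and 243 in 108 without, a log2 ratio of 2.0, while Reg3b stood at 19489 and 22879 CPM and Reg3a at 355 and 432. By Fabp6, Reg3b stood at 20879.6 CPM in 214 cells with a UMI and 19609 in 129 without, and Reg1 at 701 and 893. The median depths were 34233 and 29287.5 UMIs in the first division and 33897.5 and 32289 in the second.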
